A study of Mus musculus with 12 samples.

Results

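The nuclear pore genes were taken by symbol as the rows of the count table that begin with Nup or Nupl and a number, together with Aaas, Ahctf1, Ndc1, Pom121, Rae1, Sec13, Seh1l and Tpr, which gave 31 of 24562 genes. All 31 were among the 13943 genes that passed the filter on low counts, Nup62cl through PND 13, the cohort in which it was highest. Nup210l passed it through PND 13 replicate 3, PND 16 large replicate 1 and PND 40 replicate 2, with 10, 12 and 13 counts. Transcripts were measured by RNA-Seq in 12 pools of 18 to 45 denuded oocytes with an intact germinal vesicle, from antral follicles of unstimulated CD-1 female mice, collected in milrinone to hold meiotic arrest. The pools were 3 each from postnatal day (PND) 13, from PND 40, and from lighter (PND 16 small) and heavier (PND 16 large) mice of PND 16. The study treats PND 13 and PND 16 small oocytes as lacking meiotic competence and PND 16 large and PND 40 oocytes as competent, so competence, age and body weight differ together between these groups.

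Nuclear pore complexes are the gates of the nuclear envelope, through which proteins enter the nucleus and mRNA and ribosomal subunits leave it. Each is built from many copies of a set of nucleoporins. Transmembrane nucleoporins anchor the pore, the outer ring (Y complex) and the inner ring form its frame, and nucleoporins rich in phenylalanine-glycine repeats fill the central channel. Further nucleoporins form filaments on the cytoplasmic side and a basket on the nuclear side. The growing oocyte has an unusually large nucleus, the germinal vesicle, and stores transcripts and proteins that are used after the envelope breaks down at meiotic resumption.

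Each pool held between 17671193 and 27418358 counts, and PND 16 small replicate 3 was the shallowest. All 12 oocyte markers were detected in every cohort, with a summed level of 19300 to 26516 CPM (counts scaled to the total of each pool and between pools by TMM). The oocyte marker Zar1 has a repeated row of equal values in the count table, which entered this sum too. Summed granulosa markers ranged from 129.6 to 515 CPM at PND 13, from 186 to 559 in PND 16 small, from 177 to 189 in PND 16 large and from 154 to 171 at PND 40, with all 12 detected in each cohort. Theca or stroma markers summed to 5.25 to 32.6 CPM, with Cyp17a1 at 0 in PND 16 large, and blood or immune markers to 0.771 to 3.04 CPM, with the haemoglobin genes Hba-a1 and Hbb-bs at 0 in every pool. In such pools, fewer cells of a type cannot be told apart from less RNA per cell.

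PND 16 small replicate 3 stood apart from the other pools of its cohort. Among the 28 nuclear pore genes that averaged 10 CPM or more, it held the lowest value of all 12 pools for 10 and the highest for 3, whereas in the other 11 pools a gene was lowest 0 to 5 times. Relative to the mean of PND 16 small replicates 1 and 2, Tpr (log2 difference 0.47), Nup153 (0.42), Ahctf1 (0.24) and Nup98 (0.24) were highest in it, and Nup35 (−1.23), Ndc1 (−0.51) and Seh1l (−0.44) lowest. These differences went with exonic length across the 28 genes, with a Spearman's rho of 0.55 as a description over genes of 1 library. Its total count was the lowest of the 12, and the part of depth or length in these values was not tested.

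**Figure D1:**
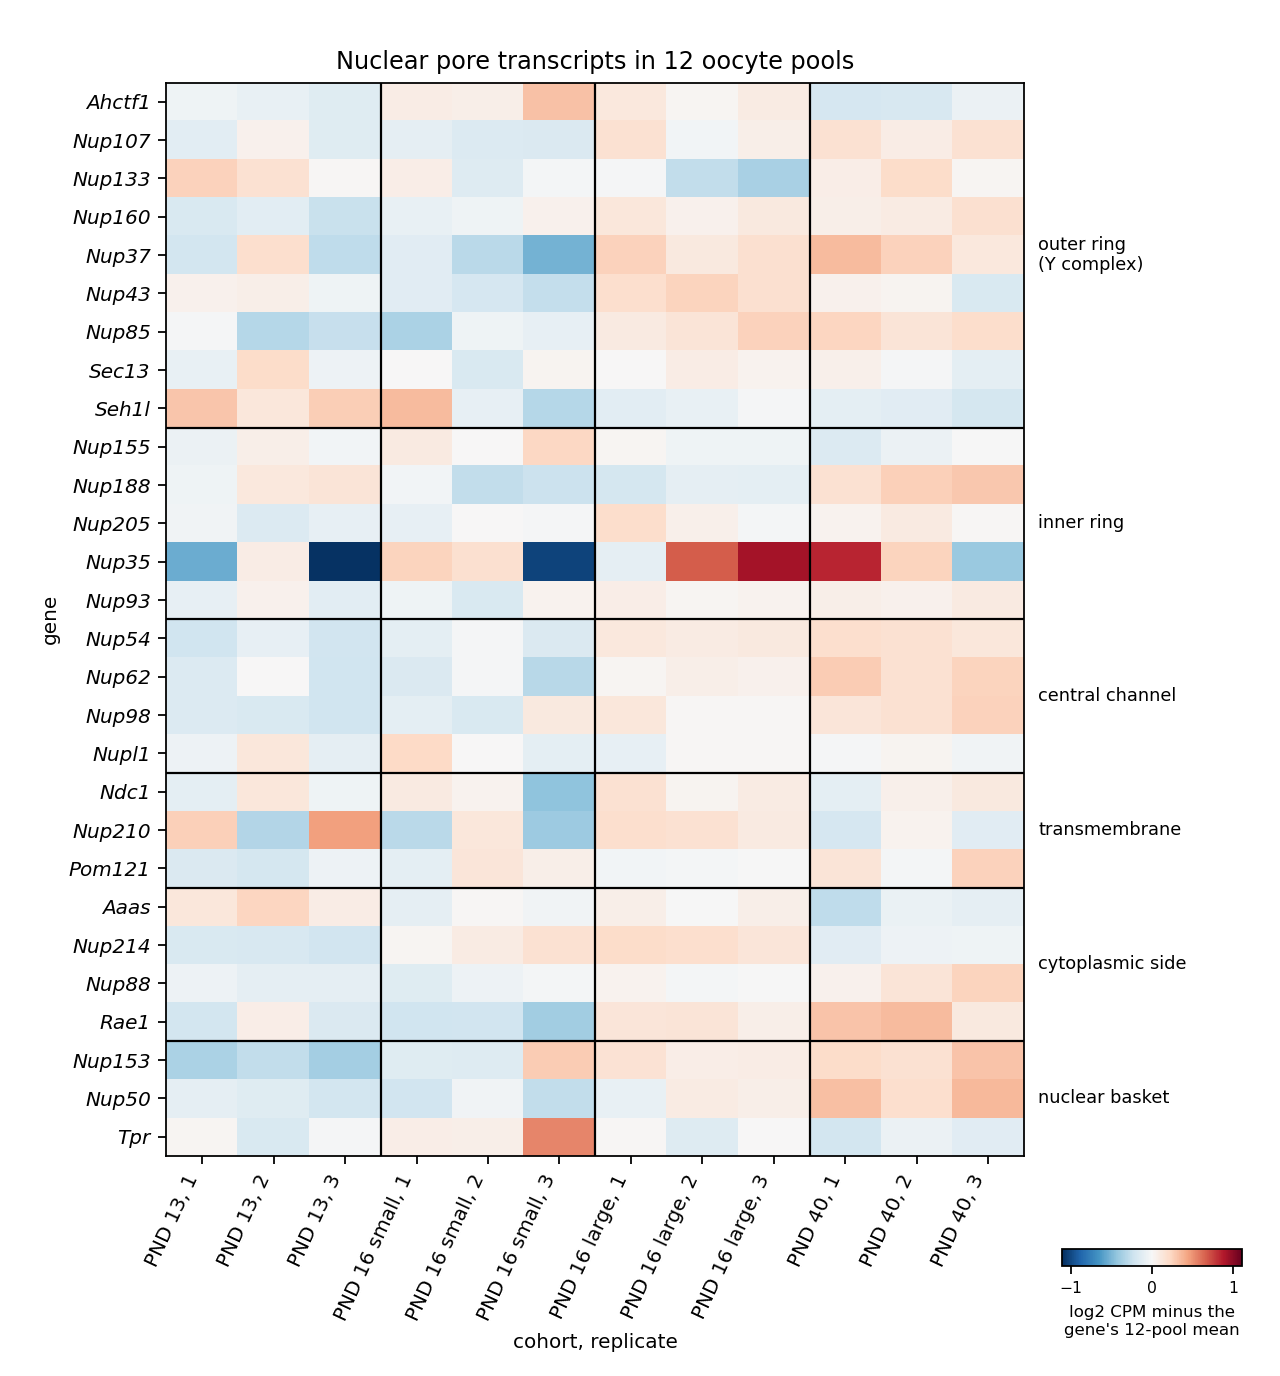
Log2 CPM of each gene minus its mean over the 12 pools (colour) for the 28 nuclear pore genes of at least 10 CPM, in rows by part of the pore and in columns by cohort and replicate. The differences are small apart from Nup35, and PND 16 small replicate 3 stands out with high Tpr, Nup153 and Ahctf1 and low Ndc1 and Nup37.

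Summed over the 31 genes, nuclear pore transcripts took 0.543 to 0.549% of the counts at PND 13, 0.545 to 0.571% in PND 16 small, 0.581 to 0.591% in PND 16 large and 0.592 to 0.616% at PND 40. The summed level was 5212 ± 115 CPM at PND 13, 5669 ± 277 in PND 16 small, 5992 ± 111 in PND 16 large and 6044 ± 145 at PND 40 (SD, n = 3 pools each). Shares and sums were weighted towards a few abundant genes, with Nup98 at a mean of 1171 CPM and Nup214 at 1051 CPM over the 12 pools. They are therefore not a course of all 31 genes: in PND 40 relative to PND 13, 19 log2 fold changes were above 0 and 12 below. The shares of counts did not overlap between competent and non-competent pools, whereas the scaled sums did, since the PND 16 small pools reached 5989 CPM and the lowest competent pool was at 5912 CPM. For 27 of the 31 genes, the highest cohort mean was less than 1.5 times the lowest. The exceptions were Nup35, Nupl2, Nup62cl and Nup210l. The same share over all genes was not computed, so this closeness is not read as a trait of nuclear pore genes. Among the 28 genes that averaged 10 CPM or more, the coefficient of variation within a cohort had a median of 6.41%. It was 9.98% for the 7858 genes tested with the same floor of 10 CPM. The sets were not matched for level above that floor, so a lower spread at equal level cannot be read from these values. The highest cohort mean was at PND 40 for 15 genes and in PND 16 large for 6, and the lowest was in PND 16 small for 12 and at PND 13 for 10. These counts include Nup62cl and Nup210l, which had few reads. Such counts were not made over all genes, so they too are not read as a trait of nuclear pore genes.

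Levels of different genes were compared as CPM per kilobase of exons. Nup214, a docking site for export complexes on the cytoplasmic side, had the highest mean over the 12 pools, 109 ± 11.5 CPM per kb (SD). Nup98, which lines the channel and binds the mRNA export factor Rae1, followed at 92.9 ± 10.3, and Nup62, the main phenylalanine-glycine nucleoporin of the central channel, at 67.1 ± 8.41. The ranges of Nup214 and Nup98 overlapped within these SDs, and the order of the pair was the reverse at PND 40, with Nup98 at 105 ± 4.61 and Nup214 at 103 ± 2.95 (n = 3), and turned over with the length of the longest transcript in place of all exons. At the other end were the membrane nucleoporin Nup210 (1.34 ± 0.244 CPM per kb), the Nup62 relative Nup62cl (0.151 ± 0.170) and the Nup210 relative Nup210l (0.0349 ± 0.0345). Nupl2 (1.40 ± 0.583) overlapped Nup210 within these SDs. Its mean was the lower of the pair at PND 13, in PND 16 large and at PND 40, and also with the length of the longest transcript. Within the transmembrane group, Pom121 (35.2 ± 3.23) and Ndc1 (13.6 ± 1.42) were thus far above Nup210 on the same scale.

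**Figure D2:**
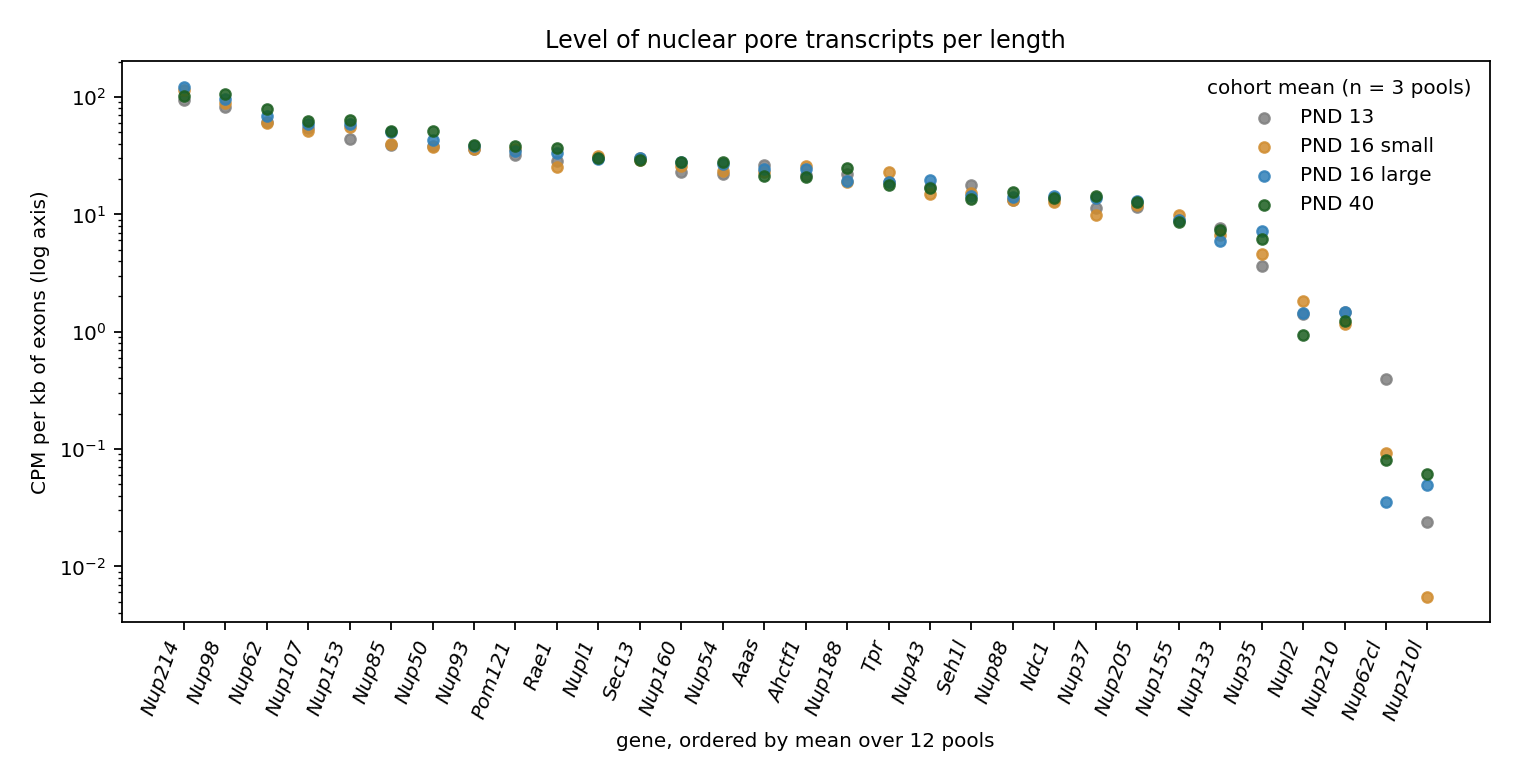
Mean CPM per kb of exons (log axis) of the 31 nuclear pore genes in each cohort (n = 3 pools), ordered by their mean over the 12 pools. Cohort means of a gene lie close together from Nup214 down to Nup133, and Nup62cl and Nup210l lie lowest.

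Competent and non-competent oocytes were compared to ask whether scaled levels of nuclear pore transcripts differed with competence, the ability to resume meiosis and reach metaphase II. The levels are shares of each pool's counts, so amounts per oocyte cannot be read from them. No nuclear pore gene reached the study's criteria (a fold change of 1.5 or more in either direction, with an adjusted p no higher than 0.05), which 15.0% of the genes tested met. An unadjusted p under 0.05 was found for 15 members and 42.1% of all genes. At the study's criteria DESeq2 called 1 member, Nup35 (16.7% of all genes), and limma another, Nup210l (14.6%). By the adjusted p alone, 10 genes were higher in competent oocytes and 0 were lower, compared with 14.2% of all genes higher and 16.5% lower. The median log2 fold change was 0.11 over the 31 genes and −0.0046 over all genes tested, and 22 of the 31 values were above 0. The pools of the 2 groups did not overlap for 3 genes, Nup54, Nup62 and Nup85, all higher in competent oocytes; 6.89% of all genes were higher and 7.81% lower without overlap. Of the 10 genes, all kept their adjusted p under each of 7 other settings, and Nup153 lost it without PND 13 replicate 1, PND 13 replicate 3 or PND 40 replicate 3 (adjusted p up to 0.0564). Without PND 16 small replicate 3, 12 genes passed.

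**Figure D3:**
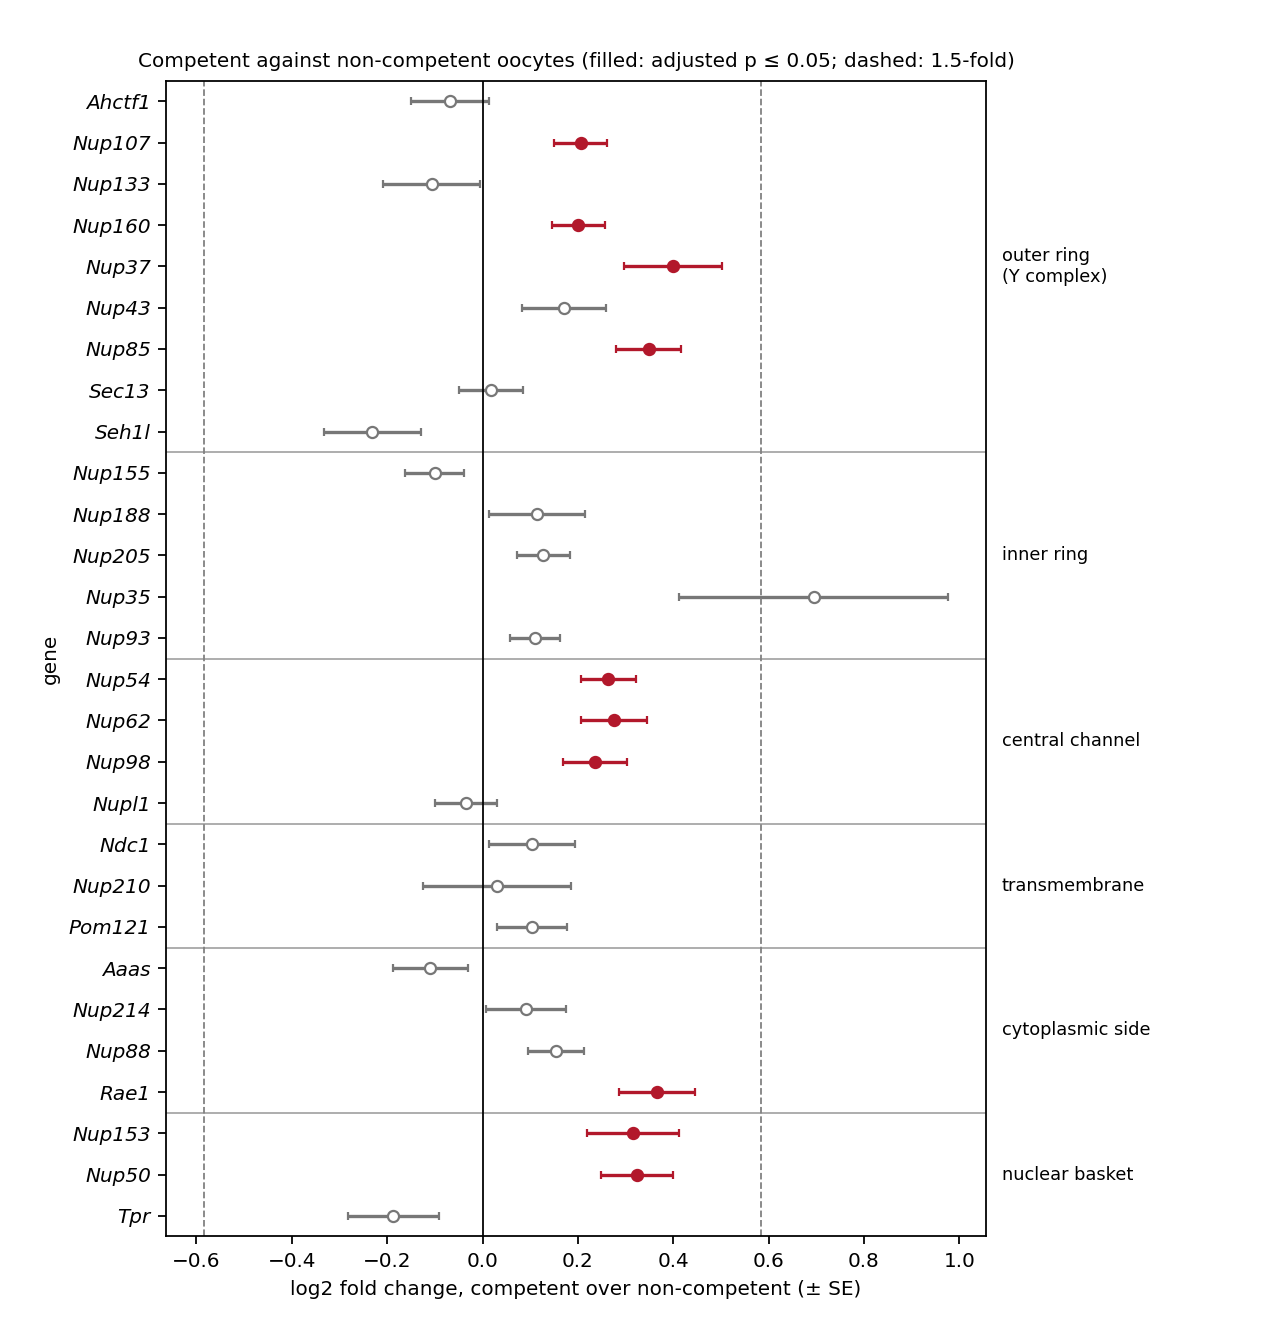
Log2 fold change, competent over non-competent oocytes (6 pools each), with its standard error for the 28 nuclear pore genes of at least 10 CPM, grouped by part of the pore. Filled points mark the 10 genes with an adjusted p of at most 0.05, all to the right of 0 and inside the dashed 1.5-fold lines.

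Each gene was assigned to a single part of the pore, and Nup98 was counted in the central channel only. With this assignment, the outer ring carried 4 of the 10 genes among its 9 members. Nup37, a small subunit of the Y complex, had the largest log2 change of the 10, 0.40 ± 0.10 (SE, adjusted p = 0.00938), with 28.2 to 45.9 CPM (median 34.2) in non-competent and 43.6 to 51.3 CPM (median 46.8) in competent pools. Nup85, a subunit of one arm of the Y, changed by 0.35 ± 0.068 (adjusted p = 0.00171), from 118 to 150.0 CPM (median 134) to 162 to 179.7 CPM (median 169.6). Only the PND 13 replicate 2 pool brought Nup37 into overlap, at 45.9 CPM, whereas every competent pool lay above every non-competent one for Nup85. Nup107, of the stem, and Nup160, of the other arm, changed by 0.21 ± 0.056 (adjusted p = 0.0129) and 0.20 ± 0.056 (adjusted p = 0.0139) on the log2 scale. Nup133, which lies next to Nup107 in the stem and shares 6.56% of its exonic bases with Gm29773 on the opposite strand, did not pass, with −0.11 ± 0.10, nor did Nup43 (0.17 ± 0.088), Sec13 (0.019 ± 0.067), Seh1l (−0.23 ± 0.10) and Ahctf1 (−0.069 ± 0.082). Sec13 also belongs to the COPII coat, and Seh1l to a regulator of mTORC1, while Ahctf1 (ELYS) brings the Y complex to chromatin after division. The outer ring therefore held genes on both sides of 0, with a median log2 fold change of 0.17.

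In the central channel, 3 of 4 genes passed. Nup62 rose by 0.28 ± 0.069 on the log2 scale (adjusted p = 0.00786), from 154 to 191 CPM (median 171) in non-competent to 193 to 231 CPM (median 206) in competent pools. Its partner Nup54 rose by 0.26 ± 0.057 (adjusted p = 0.00314), from 71.9 to 82.9 CPM (median 76.3) to 89.2 to 95.3 CPM (median 90.9). Nupl1, the third protein of that trimer, was at −0.035 ± 0.065 and did not pass. Nup98 rose by 0.24 ± 0.067 (adjusted p = 0.0153), but its groups overlapped through PND 16 small replicate 3. Nupl1 shares 48.8% of its exonic bases with Gm49336 on the same strand, and Nup62 shares 3.40% with Il4i1, so reads of these genes may be divided between annotations.

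The nuclear basket held 2 passing genes of 3, and the members differed in sign. Nup50, a cofactor of importin release, rose by 0.32 ± 0.076 (adjusted p = 0.0052) and Nup153, which anchors the basket, by 0.32 ± 0.097 (adjusted p = 0.0236). Tpr, the coiled-coil filament of the basket, was at −0.19 ± 0.096 and did not pass. On the cytoplasmic side, 1 of 5 genes passed: Rae1, the mRNA export partner of Nup98, with 0.37 ± 0.081 (adjusted p = 0.0036), whereas Nup88 (0.15 ± 0.058), Nup214 (0.092 ± 0.084), Aaas (−0.11 ± 0.079) and the export factor Nupl2 (−0.45 ± 0.30) did not. Of the inner ring, 0 of 5 passed, with Nup93 at 0.11 ± 0.053, Nup188 at 0.11 ± 0.10, Nup205 at 0.13 ± 0.055, Nup155 at −0.10 ± 0.061 and Nup35 at 0.69 ± 0.28. Of the membrane nucleoporins, 0 of 4 passed, with Ndc1 at 0.10 ± 0.090, Pom121 at 0.10 ± 0.073, Nup210 at 0.031 ± 0.15 and Nup210l at 1.77 ± 0.92, and the unassigned Nup62cl was at −2.04 ± 0.82. Nup35, the largest value among genes above 10 CPM, varied by 39.4% within cohorts, and Pom121 shares 11.9% of its exonic bases with Nsun5 on the opposite strand. Granulosa markers moved with this comparison: 3 of 12 were lower in competent oocytes (Fshr, Kitl and Nr5a2) and their median log2 fold change was −1.39, and their part in the result was not tested.

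Promoter windows of GRCm38.p6, from 250 bases before to 50 after the RefSeq start, were at hand for 26 of the 31 genes and not for Nup210l, Nup35, Nup43, Nup85 and Seh1l. The 4 printed below are those of Nup62cl, shown because it was past the study's criteria in PND 16 large relative to PND 13, a call on few reads that was lost with no filter, and of the 3 genes with the largest passing changes in competent oocytes that had a window. Capitals mark the letters that matched a searched motif on either strand, with the motifs spelled out after the sequences. Each sequence runs 5′ to 3′ along the gene's strand.
Nup37 (chr10:88146742-88147041, plus strand, the first of its 2 windows): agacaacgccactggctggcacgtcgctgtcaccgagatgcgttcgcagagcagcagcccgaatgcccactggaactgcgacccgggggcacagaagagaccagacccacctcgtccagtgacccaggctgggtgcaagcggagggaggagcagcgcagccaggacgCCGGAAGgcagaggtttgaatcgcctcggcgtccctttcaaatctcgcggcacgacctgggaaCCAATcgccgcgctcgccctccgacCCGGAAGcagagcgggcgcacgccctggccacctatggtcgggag
Rae1 (chr2:172999867-173000166, plus strand): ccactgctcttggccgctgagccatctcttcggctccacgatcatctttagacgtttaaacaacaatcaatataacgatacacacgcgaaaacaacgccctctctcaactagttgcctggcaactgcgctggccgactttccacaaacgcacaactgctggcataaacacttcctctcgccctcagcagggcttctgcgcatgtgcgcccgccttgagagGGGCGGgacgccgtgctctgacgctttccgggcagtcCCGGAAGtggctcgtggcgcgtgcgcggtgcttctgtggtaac
Nup50 (chr15:84923178-84923477, plus strand): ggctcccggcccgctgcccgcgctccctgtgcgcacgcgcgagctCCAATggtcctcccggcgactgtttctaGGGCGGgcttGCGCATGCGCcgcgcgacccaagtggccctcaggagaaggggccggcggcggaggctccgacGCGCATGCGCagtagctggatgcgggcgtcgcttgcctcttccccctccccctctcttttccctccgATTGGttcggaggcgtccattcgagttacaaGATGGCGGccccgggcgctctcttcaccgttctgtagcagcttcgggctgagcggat
Nup62cl (chrX:140062519-140062818, minus strand): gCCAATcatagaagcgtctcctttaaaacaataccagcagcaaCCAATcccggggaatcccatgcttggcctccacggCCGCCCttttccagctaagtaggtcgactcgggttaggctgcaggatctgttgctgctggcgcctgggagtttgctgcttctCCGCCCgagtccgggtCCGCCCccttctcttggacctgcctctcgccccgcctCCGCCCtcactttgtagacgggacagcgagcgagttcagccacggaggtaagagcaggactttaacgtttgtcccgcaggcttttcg

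The Nup37 window held 2 matches to the ETS letters CCGGAAG, and 1 lay just inside the start of Rae1. Over all windows, ETS was found for 7 of the 26 genes (Aaas, Nup107, Nup155, Nup37, Nup54, Rae1 and Sec13) and for 9.93% of the 27025 genes in the table. The Nup50 window held the NRF1 core, searched as GCATGCGC, as 2 palindromic blocks, each matching on both strands so that the matches overlap; 4 of the 26 genes (Nup107, Nup50, Nup62 and Nupl1) and 3.05% of all genes had it. The YY1 core, searched as GATGGCGG, which sits across the start of Nup50, was found for 5 of the 26 genes and 1.97% of all. The GC box, GGGCGG, was found for 18 of the 26 genes and 38.2% of all. The CCAAT box was found for 11 of the 26 genes and 41.1% of all. The TATA box, TATAAA, was found for 2 of the 26 genes and 15.7% of all. Of the E2F motifs, TTTCCCGC was found for 1 of the 26 genes and 1.24% of all, and the other, TTTGGCGC, for 0 and 0.585%. These windows were rich in CpG, with a median of 27 CpG per 300 bases compared with 7 over all genes, and Nup62cl, whose level was close to 0, held 21. All 26 genes passed the filter on low counts, whereas the genes of the promoter table were not limited to those that passed. The motif shares and CpG counts are therefore not read as a trait of nuclear pore genes.

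PND 16 small and PND 13 oocytes, both non-competent but 3 days apart in age, differed least. By the adjusted p alone, 1 nuclear pore gene was higher in PND 16 small and 0 were lower (0.689% of all genes higher and 0.237% lower), and 0 met the study's criteria, which 0.373% of all genes met (8 members and 19.2% of all genes had an unadjusted p under 0.05, and DESeq2 called 0 members and 3.07% of all genes). The gene was Nup214, which lies at chr2:31974436-32053975 on GRCm38. It was at 932, 923 and 901 CPM at PND 13, at 1059, 1115 and 1176 in PND 16 small, at 1200.2, 1187 and 1146 in PND 16 large and at 959, 1004 and 1012 at PND 40. Both PND 16 cohorts stood above PND 13 and PND 40 without overlap. Its log2 fold change was 0.28 ± 0.060 over PND 13 in PND 16 small (adjusted p = 0.0456) and 0.36 ± 0.060 in PND 16 large (adjusted p = 0.0013), and PND 40 was at −0.25 ± 0.060 relative to PND 16 large (adjusted p = 0.0264) and at −0.17 ± 0.060 relative to PND 16 small (adjusted p = 0.0447). The value in PND 16 large relative to PND 13 kept its call in every alternative run (adjusted p up to 0.0105). That of PND 16 small relative to PND 13 was lost with total counts as the scaling, with no filter on counts, in the fit of these 6 pools alone, and without any 1 PND 13 pool, PND 16 small replicate 2 or PND 16 small replicate 3 (up to 0.384 over the alternatives). That of PND 40 relative to PND 16 large was lost without any 1 of the 6 pools (up to 0.118), and that relative to PND 16 small with total counts, with no filter, in the fit of these 6 pools alone, and without any 1 PND 40 pool, PND 16 small replicate 2 or PND 16 small replicate 3 (up to 0.16). With total counts, the share of all called genes that were higher in PND 16 small than at PND 13 went from 74.4% to 29.0%.

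In PND 16 large relative to PND 13, 6 nuclear pore genes were higher and 2 lower by the adjusted p alone (12.6% of all genes higher and 13.0% lower). The higher genes were Nup153, Nup160, Nup214, Nup54, Nup85 and Nup98, with log2 fold changes of 0.23 to 0.43, of which Nup153, Nup160 and Nup214 kept their call in every alternative run. The lower ones were Nup133 (−0.35 ± 0.11, adjusted p = 0.0342) and Nup62cl. Nup62cl (chrX:140006805-140062712) was the one gene past the study's criteria in this comparison, as were 13.3% of all genes, with −3.39 ± 1.11 (adjusted p = 0.0397). It passed the filter on low counts through PND 13, its highest cohort, so that a difference from PND 13 was favoured by the filter, and its values are given as a description. At the same criteria DESeq2 called Nup62cl and Nup35 (15.6% of all genes), and 14 members and 37.6% of all genes had an unadjusted p under 0.05. Its counts were 15, 17 and 31 at PND 13, 7, 6 and 0 in PND 16 small, 0, 4 and 2 in PND 16 large and 3, 1 and 10 at PND 40. At so few reads the fitted change depends on the treatment of low counts. The call was lost without a filter on counts (0 genes) and without PND 13 replicate 1, PND 13 replicate 3 or any 1 PND 16 large pool (adjusted p up to 0.128 over the alternatives). Nup133 lost its call without PND 13 replicate 1 or 2 or PND 16 large replicate 2 or 3 (adjusted p up to 0.118). Granulosa markers summed to 446, 129.6 and 515 CPM in the PND 13 pools, in the order of the counts given, and their part in the Nup62cl values was not tested. With total counts as the scaling, 3 nuclear pore genes were higher and 3 lower, and the share of all called genes that were higher went from 49.4% to 32.4%.

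In PND 40 relative to PND 13, 11 nuclear pore genes were higher and 2 lower by the adjusted p alone (16.3% of all genes higher and 16.7% lower), and 0 met the study's criteria, which 18.9% of all genes met (15 members and 43.1% of all genes had an unadjusted p under 0.05, and DESeq2 called 0 members and 21.1%). The higher genes were Nup107, Nup153, Nup160, Nup50, Nup54, Nup62, Nup85, Nup88, Nup98, Pom121 and Rae1, of which Nup107, Nup88, Pom121 and Rae1 lost their call in at least 1 alternative. With total counts, 8 were higher and 2 lower, and the share of all called genes that were higher went from 49.4% to 39.1%. Granulosa markers moved with this comparison, with 3 of 12 lower and a median log2 fold change of −1.66. So did the 12 oocyte markers, with 2 higher, 6 lower and a median of −0.26, the repeated row of Zar1 counted. The part of both marker lists in the values was not tested. Among the genes that passed the adjusted p, the largest value was that of Nup153 (chr13:46679905-46727940). It was at 302, 318 and 298 CPM at PND 13, 351, 349 and 467 in PND 16 small, 430.1, 404 and 407 in PND 16 large and 443, 433 and 479 at PND 40. PND 40 and PND 16 large pools stood above the PND 13 pools without overlap, with log2 fold changes of 0.56 ± 0.098 (adjusted p = 0.000893) and 0.43 ± 0.098 (adjusted p = 0.0065). PND 16 small replicate 3 reached the competent range, and its cohort differed from PND 13 by 0.35 ± 0.098 (adjusted p = 0.0822). Nup98 (chr7:102119398-102210176) followed a like course, at 1048, 1038 and 1001 CPM at PND 13, 1078, 1037 and 1252 in PND 16 small, 1272, 1173 and 1176 in PND 16 large and 1281, 1306 and 1392 at PND 40. Its log2 fold change was 0.37 ± 0.076 at PND 40 relative to PND 13 (adjusted p = 0.00259). The lower genes were Aaas, mutated in triple A syndrome (−0.30 ± 0.084, adjusted p = 0.015, lost without PND 40 replicate 1 with an adjusted p of 0.0753), and Seh1l (−0.38 ± 0.13, adjusted p = 0.0416). Seh1l was at 76.6, 67.7 and 74.7 CPM at PND 13 and at 57.5, 56.8 and 54.2 at PND 40, without overlap, but lost its call when PND 13 replicate 1, PND 13 replicate 3 or any 1 PND 40 pool was left out (adjusted p up to 0.116).

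**Figure D4:**
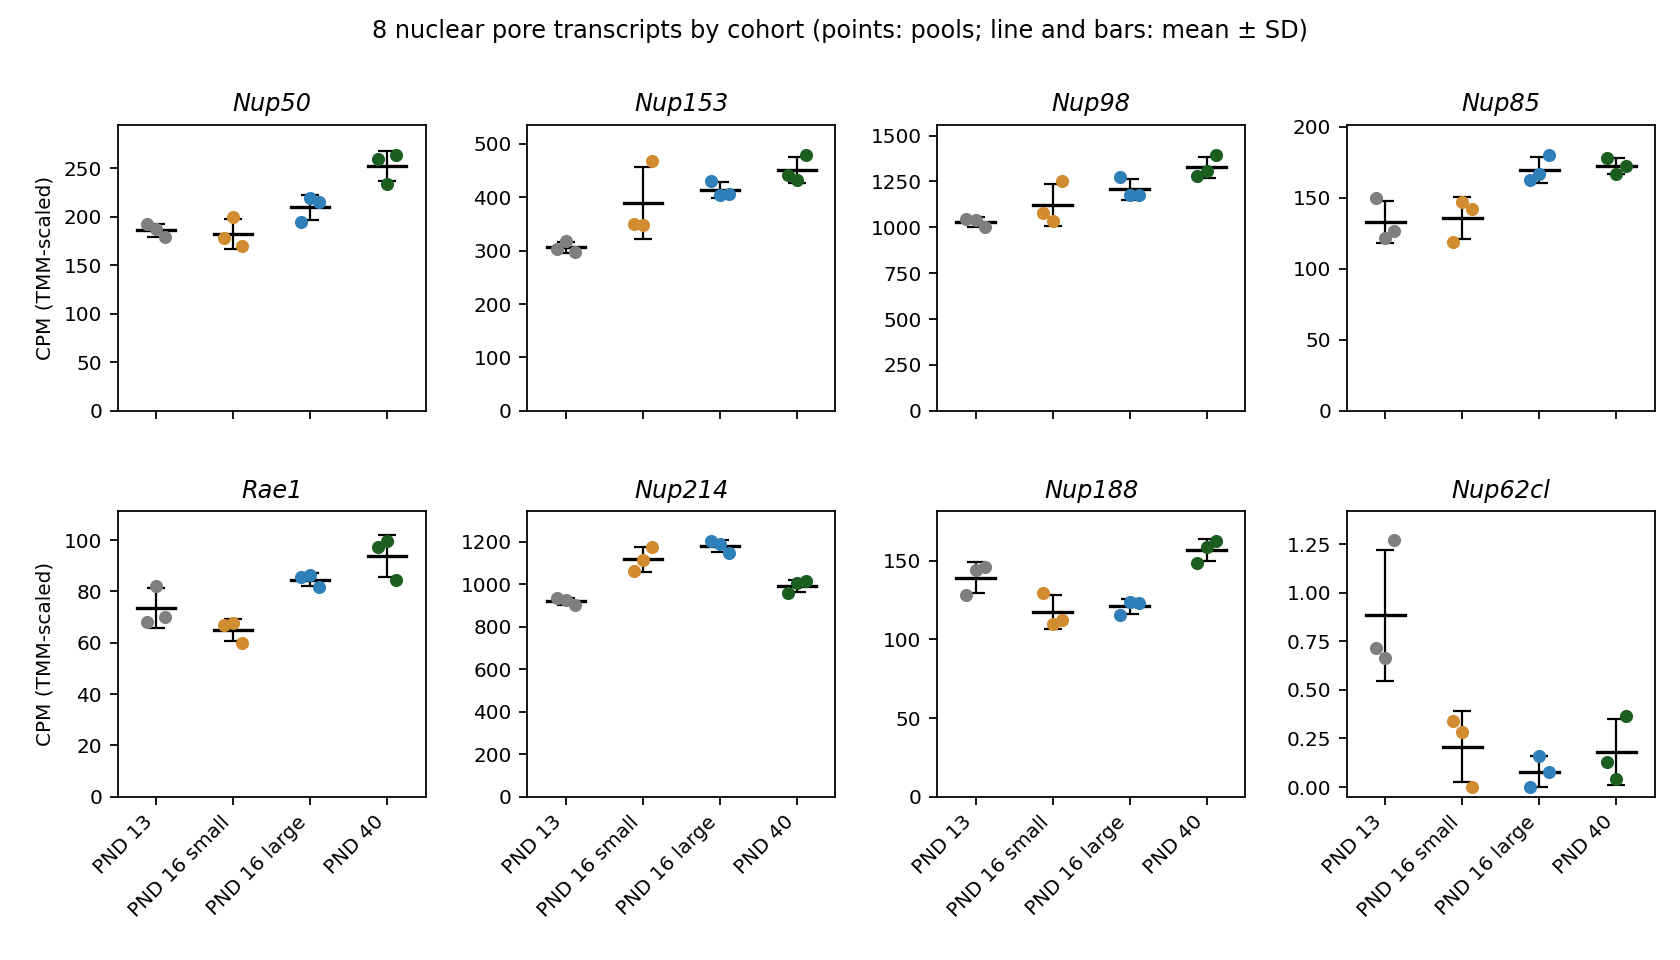
CPM of 8 nuclear pore genes in the 12 pools (points), with the mean and SD of each cohort (n = 3); the axes start at 0 except for a small margin below 0 for Nup62cl. Nup50, Nup153, Nup98, Nup85 and Rae1 have their highest cohort mean at PND 40, Nup214 is highest in both PND 16 cohorts, and the mean of Nup188 is lowest in both.

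The 2 cohorts of PND 16, equal in age and different in body weight and competence, differed in 4 nuclear pore genes by the adjusted p alone, all higher in PND 16 large (4.98% of all genes higher and 7.32% lower). No member met the study's criteria, which 6.19% of all genes met (9 members and 28.2% of all genes had an unadjusted p under 0.05, and DESeq2 called 0 members and 9.33%). The genes were Nup37 (0.48 ± 0.14, adjusted p = 0.0356), Nup43 (0.39 ± 0.093, adjusted p = 0.0172), Rae1 (0.38 ± 0.096, adjusted p = 0.022) and Nup85 (0.32 ± 0.095, adjusted p = 0.0421). Nup43, another small Y complex subunit, was at 39.7, 38.2 and 36.2 CPM in PND 16 small and 49.5, 51.5 and 49.0 in PND 16 large, with PND 13 (42.0 to 45.4) and PND 40 (38.6 to 44.8) between or overlapping the lower cohort. Nup85 (chr11:115564434-115583985) was at 150.0, 122 and 127 CPM at PND 13, 118, 147 and 142 in PND 16 small, 162, 167 and 179.7 in PND 16 large and 178, 166 and 173 at PND 40. Its levels thus formed a lower pair and a higher pair of cohorts, and within each pair the values overlapped. Rae1 (chr2:173000117-173015739) was at 68.2, 82.3 and 69.9 CPM at PND 13, 67.1, 67.6 and 60.0 in PND 16 small, 85.6, 86.5 and 81.6 in PND 16 large and 97.4, 99.5 and 84.5 at PND 40. All 4 calls were lost without PND 16 large replicate 1 or PND 16 large replicate 2 (0 genes each), 2 were left without PND 16 large replicate 3, and Nup37, Nup85 and Rae1 lost theirs without PND 16 small replicate 3 (adjusted p up to 0.136 over the alternatives). The fit of these 6 pools alone left 1.

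PND 40 and PND 16 large oocytes, both competent, differed in 2 nuclear pore genes by the adjusted p alone, 1 higher and 1 lower (3.59% of all genes higher and 3.24% lower), and in 0 at the study's criteria, which 3.66% of all genes met (8 members and 22.4% of all genes had an unadjusted p under 0.05, and DESeq2 called 0 members and 5.84%). The lower gene was Nup214, described above. The higher gene was Nup188, a scaffold of the inner ring at chr2:30286397-30344266, with 0.37 ± 0.081 (adjusted p = 0.0161). It was at 128, 144 and 146 CPM at PND 13, 129.6, 109.5 and 112 in PND 16 small, 116, 124 and 123 in PND 16 large and 149, 159 and 162 at PND 40. PND 40 pools stood above those of the 3 other cohorts without overlap, and the cohort means were lowest in PND 16 small and PND 16 large, where those of Nup214 were highest. Both calls were lost when any 1 PND 16 large pool, PND 40 replicate 2 or PND 40 replicate 3 was left out (0 genes), and DESeq2 passed 5 genes by the adjusted p alone. Nup188 shares 7.88% of its exonic bases with Gm14471 on the opposite strand and 4.55% with Gm28038 on the same strand.

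PND 40 and PND 16 small oocytes, the oldest competent cohort and the non-competent cohort of lighter mice, differed in 13 nuclear pore genes by the adjusted p alone, 10 higher and 3 lower at PND 40 (14.5% of all genes higher and 15.7% lower). None met the study's criteria, which 17.2% of all genes met (17 members and 40.9% of all genes had an unadjusted p under 0.05, and DESeq2 called 0 members and 19.1%). The 10 higher genes were Nup107, Nup188, Nup37, Nup50, Nup54, Nup62, Nup85, Nup88, Nup98 and Rae1. Rae1 was higher by 0.53 ± 0.096 (adjusted p = 0.00125), Nup37 by 0.54 ± 0.14 (adjusted p = 0.00913), Nup50 by 0.47 ± 0.078 (adjusted p = 0.000785) and Nup188 by 0.42 ± 0.081 (adjusted p = 0.00196), all on the log2 scale. Nup50 (chr15:84923411-84942963) was at 193, 187 and 179 CPM at PND 13, 178, 199.8 and 170.1 in PND 16 small, 195, 219.5 and 215 in PND 16 large and 259, 234 and 263 at PND 40, so that PND 40 stood above every other pool. The lower genes were Tpr (−0.37 ± 0.11, adjusted p = 0.0235), Ahctf1 (−0.30 ± 0.074, adjusted p = 0.00842) and Nup214. Tpr was at 216, 215 and 298 CPM in PND 16 small compared with 179, 197 and 188 at PND 40, with 1 pool far above the rest, and its call was lost without PND 16 small replicate 3, PND 40 replicate 1 or PND 40 replicate 3 (adjusted p up to 0.0875 over the alternatives). Nup54, Nup85, Nup88 and Nup98 also lost their call in at least 1 alternative, and the fit of these 6 pools alone left 8. Granulosa markers (3 of 12 lower, median −1.43) and oocyte markers (1 higher and 5 lower of 12, median −0.11, the repeated row of Zar1 counted) differed in this comparison too, and their part was not tested. In the remaining comparisons the median of the granulosa markers was 0.065 in PND 16 small and −1.28 in PND 16 large (1 lower) relative to PND 13, −1.11 in PND 16 large relative to PND 16 small and −0.15 in PND 40 relative to PND 16 large.

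Across the 6 pairwise comparisons and that by competence, 21 of the 31 genes passed the adjusted p at least once. The same share over all genes was not computed, so this count is not read as a trait of nuclear pore genes. The 10 that never passed were Ndc1, Nup155, Nup205, Nup210, Nup210l, Nup35, Nup93, Nupl1, Nupl2 and Sec13. The comparisons share pools, so that their values are set side by side and not counted as independent. Nup93, the hub of the inner ring, had cohort means whose highest was 1.09 times the lowest, and for Nupl1 and Sec13 these ratios were 1.05 and 1.06.

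Pooled over the parts of the pore, pairs of genes within a part had no higher median correlation than all pairs. Pearson's r of log2 CPM was taken over the 12 pools, which share cohorts and scaling. Its median was 0.020 over the 64 pairs within a part of the pore and 0.10 over all 378 pairs. By part, the median was 0.34 in the central channel (6 pairs) and 0.14 in the nuclear basket (3 pairs), above that of all pairs. It was below that of all pairs in the outer ring (0.022, 36 pairs) and inner ring (0.0082, 10 pairs). The cytoplasmic side (−0.10, 6 pairs) and transmembrane group (−0.14, 3 pairs) were below it too. The most alike pairs were Nup153 and Nup98 (r = 0.95), Nup50 and Nup62 (0.94), Nup37 and Rae1 (0.94) and Nup153 and Nup160 (0.94). By the single part assigned to each gene, the genes of each pair came from different parts. Within a part, Nup107 and Nup37 (0.91) and Nup54 and Nup62 (0.89) were closest, and Nup160 and Seh1l (−0.80) were most opposed. The lowest r of all was that of Nup153 and Seh1l (−0.86).

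Genes that work with the pore were taken from fixed lists and compared between competent and non-competent oocytes. By the adjusted p alone, 14.2% of all genes were higher and 16.5% lower in that comparison, beside which the counts of each list stand. Of 26 transport receptors and Ran cycle genes, 3 were higher and 8 lower by the adjusted p alone, with a median log2 fold change of −0.14, and 3 met the study's criteria, which 15.0% of all genes met. Those were Xpot, the tRNA exporter (−2.01 ± 0.26, adjusted p = 0.000114), Tnpo3, the importer of SR proteins (−1.33 ± 0.11, adjusted p = 1.2e-05), and Ran, the GTPase that sets the direction of transport (−0.99 ± 0.15, adjusted p = 0.000261). Ran was at 10.9 ± 2.14 CPM in competent and 21.5 ± 3.25 CPM in non-competent oocytes (SD, n = 6). Ranbp2, the large nucleoporin of the cytoplasmic filaments, whose symbol lies outside the rule, fell by 0.44 ± 0.088 on the log2 scale (adjusted p = 0.00187), from 302 ± 43.0 to 223 ± 18.5 CPM. Of 21 genes of mRNA export and pore-bound enzymes, 3 were higher and 3 lower, with a median of 0.13, and Senp2, a SUMO protease docked at the pore, met the study's criteria (−0.84 ± 0.11, adjusted p = 8.67e-05). Of 24 genes of the nuclear envelope and lamina, 3 were higher and 8 lower, with a median of −0.10, and 6 met the study's criteria, led by the inner membrane protein Lemd2 (−1.80 ± 0.22, adjusted p = 6.44e-05) and the torsin Tor1b (−1.27 ± 0.36, adjusted p = 0.016). The oocyte markers, 2 higher and 6 lower of 12, had a median of −0.022 with the repeated row of Zar1 counted. Without that row, the median lies between Nobox (−0.20) and Kit (−0.022). Theca or stroma markers (0 of 6 tested passed) had a median of −0.13 and the single blood or immune marker tested, Cd68, a value of −0.095.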

How the data were processed

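RNA-Seq was performed by the authors on 12 pools of oocytes with rRNA-depleted directional libraries, and the reads were processed on the Rosalind platform. The submitters' processing notes name FastQC, STAR, HTSeq, DESeq, DESeq2 and HOMER and the build mm10. Versions, roles and the strand setting of the counting are not given in the sources used here. The authors deposited raw counts per gene, which were used for all main results, and log2 values, which hold the log2 of each count scaled by a constant per pool, plus 1, and which served for 1 alternative. Of the symbols in the count file, 5 occur more than once, Zar1 among them. The pools' totals ranged from 17671193 to 27418358 counts. Pools of a cohort differed by more than sampling noise (chi-square per gene of 9.17 to 50.6). P-values set a difference against the spread between pools. For competence, this spread included differences between the cohorts of a group, whereas the pairwise comparisons used the spread within cohorts. The p-values of the competence and the pairwise comparisons are thus not on the same footing.

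The members and lists were chosen with earlier results of these data known. Genes were filtered with edgeR's filterByExpr (minimum count 10; 13943 kept) and scaled by TMM (factors 0.955 to 1.07). The 6 pairs of cohorts were contrasts of 1 robust quasi-likelihood model in edgeR 4.0.16 (R 4.3.3), and competence was fitted as 2 groups of 6 pools. Adjusted p-values are Benjamini-Hochberg over all genes tested. Standard errors are the absolute log2 fold change over the square root of F. The scripts were tested on simulated data. Every member is named. Values in every pool are given for members that met the study's criteria and then for those with the smallest adjusted p, up to 8, and the values of Nup43, Seh1l and Tpr were added after they were seen. Related lists are named by their most changed genes, and Ranbp2 was named after its value was seen. Only 1 member met the study's criteria, so that 3 promoters were added by adjusted p alone.

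Alternatives were DESeq2 1.42.0, RLE factors, total counts, no filter, limma 3.58.1 on the deposited log2 values, the replicate number as a block, a fit of other samples and leaving out each pool. Recomputing the counts by adjusted p alone under these was chosen after seeing the data. Exonic lengths and coordinates are from GENCODE M21 (GRCm38), and promoters and their sequences from RefSeq (GRCm38.p6). Figures were drawn with matplotlib 3.10.9.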

Additional observations from a re-analysis of the deposited data

Results flagged for a closer look

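In each group of 6 pools, the highest and the lowest value of every nuclear pore gene were compared with the rest by Dixon's test (62 groups), which flags about 1 group in 20 by chance. There were 5 values that stood apart, all of them the highest of the non-competent pools. PND 16 small replicate 3 held 3 of them: Nup153 at 467 CPM (298 to 351 in the other 5 pools), Nup98 at 1252 CPM (1001 to 1078) and Tpr at 298 CPM (183 to 216). Nup107 was at 226 CPM in PND 13 replicate 2 (195 to 203 in the others), and Nup210l was at 0.409 CPM in PND 13 replicate 3 (0 to 0.0948), which is 10 reads. For Nup107 and Nup98, both higher in competent oocytes by the adjusted p, and for Nup153, these pools set the overlap between the groups.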

How the results depend on the processing

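Of 51 values of a nuclear pore gene in a comparison that passed the adjusted p, 35 kept it under all 7 other settings and 26 also without any 1 pool. With no fold criterion, the counts at the study's criteria became 10 (competent vs. non-competent), 1 (PND 16 small vs. PND 13), 8 (PND 16 large vs. PND 13), 13 (PND 40 vs. PND 13), 4 (PND 16 large vs. PND 16 small), 2 (PND 40 vs. PND 16 large) and 13 (PND 40 vs. PND 16 small). With the criterion, DESeq2 called 1 gene by competence and 2 in PND 16 large vs. PND 13, limma 1 by competence, and no filter and the block each 0 in PND 16 large vs. PND 13. By the adjusted p alone, PND 16 small vs. PND 13 gave 4 genes with DESeq2 and 0 with total counts, no filter, the block or only the 6 pools compared. That 6-pool fit gave 1 gene in PND 16 large vs. PND 16 small, 6 in PND 40 vs. PND 16 large and 8 in PND 40 vs. PND 16 small, and DESeq2 gave 5 in PND 40 vs. PND 16 large. The block also ended the calls of Nup214 in PND 40 vs. PND 16 small, of Nup98 and Nup62cl in PND 16 large vs. PND 13, of Nup107 in PND 40 vs. PND 13 and of Nup85 in PND 16 large vs. PND 16 small. The shares of all genes that passed by the adjusted p alone under these settings, or without 1 pool, were not computed. A shift in the members' counts therefore cannot be told apart from one over all genes, and the cause of these shifts was not tested. Without 1 pool, counts by the adjusted p alone were 9 to 12 by competence, 0 to 5 in PND 16 small vs. PND 13, 3 to 7 in PND 16 large vs. PND 13, 9 to 13 in PND 40 vs. PND 13, 0 to 5 in PND 16 large vs. PND 16 small, 0 to 1 in PND 40 vs. PND 16 large and 9 to 12 in PND 40 vs. PND 16 small. At the study's criteria they were 0 to 2 by competence, 0 to 1 in PND 16 large vs. PND 13 and in PND 40 vs. PND 13, 0 to 3 in PND 40 vs. PND 16 small and 0 to 0 in the others. Total counts moved the median of all genes to −0.12 for PND 16 small against PND 13 and to −0.13 for PND 16 large against PND 13, and the members' median to −0.11 and 0.038, with 0.077 by competence and 0.072 in PND 40 vs. PND 13. Values near 0 by competence changed sign: with total counts Nup210 (−0.0131) and Sec13 (−0.0166), and without 1 pool Nup210 (−0.0519 to 0.141), Sec13 (−0.0241 to 0.0648) and Nupl1 (−0.0726 to 0.00835). With the longest transcript as length, Nup214 was at 159, Nup98 at 175 and Nup210 at 1.99 CPM per kb, above Nupl2 at 1.81. Replicate numbers only name the pools: deviations of same-numbered pools correlated at −0.44 to 0.075, and the replicate block gave 10 genes by competence by the adjusted p alone and 12 in PND 40 vs. PND 13. With 3 pools a cohort, genes of a few reads such as Nup62cl and Nup210l were not resolved at this depth.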
